A study of Mus musculus with 8 samples.

Results

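The NF-kappaB subunits and their inhibitors were read out in HCA-1 liver tumors of mice that had received imiquimod in vesicles. The set holds 10 of the 55536 counted genes, picked by symbol. It comprises the 5 subunit genes Rela, Rel, Relb, Nfkb1 and Nfkb2, and 5 inhibitors and regulators, Nfkbia, Nfkbie, Nfkbiz, Bcl3 and Tnfaip3. HCA-1, a mouse hepatocellular carcinoma (HCC) line, was injected under the liver capsule of male C3H mice, whose age is 6 to 8 weeks in the sample labels and 4 to 6 weeks in the study's methods. On day 17 the mice were given a single intravenous dose of PFSUV-IMQ (labelled IMQNP) at 4 mg kg-1, or saline (labelled Control), and tumors were taken 3 h later. PFSUV-IMQ is imiquimod, an agonist of the endosomal receptor TLR7, loaded into phospholipid-free small unilamellar vesicles. The 4 PFSUV-IMQ tumors carry replicate numbers 1, 2, 3 and 4, and the 4 control tumors 1, 3, 4 and 5. The controls received no vesicles, so vesicle and drug cannot be told apart. RNA was extracted from whole tumors, which hold host cells beside the HCA-1 cells.

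NF-kappaB is a family of dimeric transcription factors. In resting cells the dimers are held in the cytoplasm by inhibitor proteins of the IkappaB type, and receptors such as TLR7, acting through MyD88 and the IKK kinase complex, mark these inhibitors for destruction and free the dimers to enter the nucleus. Among the best known targets of NF-kappaB are its own inhibitors, foremost Nfkbia and Tnfaip3, which end the response, and several of its own subunits. This activation acts on proteins that already exist, whereas the present data measure RNA.

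Promoter sequence is shown for the members with a match to the kappaB motif, the DNA element that NF-kappaB binds, near the transcription start. RefSeq windows on GRCm38.p6, from 250 bases before to 50 after a start, were given for 7 of the 10 members (10 windows in all) and not for Nfkb1, Relb and Nfkbiz. Each sequence below is written 5′ to 3′ on the gene's own strand with 15 bases on either side, and the capitals mark the kappaB match. For Nfkb2, which has 3 windows and further matches, 1 match is shown.
Nfkbia, chr12:55492652-55492691, - strand: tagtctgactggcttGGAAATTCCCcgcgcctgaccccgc
Bcl3, chr7:19822729-19822768, - strand: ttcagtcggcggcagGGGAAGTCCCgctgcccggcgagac
Tnfaip3, upstream match, chr10:19015511-19015550, - strand: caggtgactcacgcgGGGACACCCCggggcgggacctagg
Tnfaip3, match next to the start, chr10:19015398-19015437, - strand: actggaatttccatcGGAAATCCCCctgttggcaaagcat
Nfkbie, chr17:45555579-45555618, + strand: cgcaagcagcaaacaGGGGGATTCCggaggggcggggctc
Nfkb2, chr19:46304683-46304723, + strand: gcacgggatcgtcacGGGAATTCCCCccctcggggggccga
Rel, chr11:23771036-23771076, - strand: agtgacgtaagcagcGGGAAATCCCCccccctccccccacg
The match began 29 bases before the start in Nfkbia, 125 and 12 bases before it in Tnfaip3, 106 in Nfkbie, 39 in Nfkb2 and 92 in Rel, and 2 bases after it in Bcl3. On either strand, overlapping matches merged, the motif was found in 8 of the 10 windows and in 6 of the 7 members, Rela being the exception. The 2nd and 3rd windows of Nfkb2 overlap, and the only match of the 3rd is also a match of the 2nd. Over all mouse promoters of the same length it was found in 8.46% of 32851 windows, or 9.55% of 27025 genes. A 2nd motif, the interferon-stimulated response element with the letters GAAANNGAAA, was found in 0 of the 7 members and in 3.99% of all genes. These matches describe letters of the reference genome, which is that of another mouse strain, and no binding was measured here.

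Between 16883911 and 27687756 reads per control tumor and between 17008151 and 18527613 per PFSUV-IMQ tumor were assigned to genes. Values below are normalized CPM, counts relative to library size as scaled by edgeR's TMM factors, which ran from 0.843 in PFSUV-IMQ replicate 2 to 1.09 in control replicate 5. Each member had between 265 and 4967 counts in every tumor, far above the 3 counts (0.105 to 0.210 CPM) taken as the detection floor for counting error. All 10 passed the filter on low counts and were among the 15998 genes tested. The test was the quasi-likelihood test of edgeR, with p-values adjusted over these genes by the Benjamini-Hochberg method and a threshold of 0.05.

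All 10 members had a fitted log2 fold change above 0 in PFSUV-IMQ against control tumors, as did 46.0% of all tested genes, and none passed the test. The median log2 fold change was 1.01 over the 5 inhibitors and regulators and 0.37 over the 5 subunits, against -0.03 over all tested genes. Without PFSUV-IMQ replicate 2 these medians were 0.63 and 0.31, and without control replicate 5 they were 1.099 and 0.52. The difference between inhibitors or regulators and subunits was tested only as the ratio of Nfkbia to Rela. Nfkbia, Tnfaip3, Bcl3 and Nfkbiz, which restrain or tune the response, were each about doubled in their fitted value. Nfkbie stood at 1.58 times control, and the subunits Nfkb1, Rela, Nfkb2, Rel and Relb at 1.41, 1.30, 1.29, 1.19 and 1.13 times control. In whole-tumor RNA, a change in the number of cells that express a gene and a change in RNA per cell cannot be told apart.

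By edgeR's adjusted p, 0 of the 10 members were called, where 2.46% of all tested genes were called higher and 0.219% lower. At an unadjusted p under 0.05, 5 members were higher, namely Nfkb1, Nfkbia, Nfkbiz, Bcl3 and Tnfaip3, and 0 lower, beside 8.34% and 4.65% of all genes. That is 4 of the 5 inhibitors and regulators, 2 of them the nuclear IkappaB proteins Nfkbiz and Bcl3, and 1 of the 5 subunits. DESeq2's Wald test, run as an alternative, called 1 member higher, Nfkbiz at an adjusted p of 0.0182, beside 3.44% of the genes it tested. Every PFSUV-IMQ tumor lay above every control tumor for 3 members, Nfkb1, Nfkbia and Tnfaip3, as for 6.00% of all tested genes. No label ties a tumor to a named animal, so these p-values describe the spread between the tumors.

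**Figure D1:**
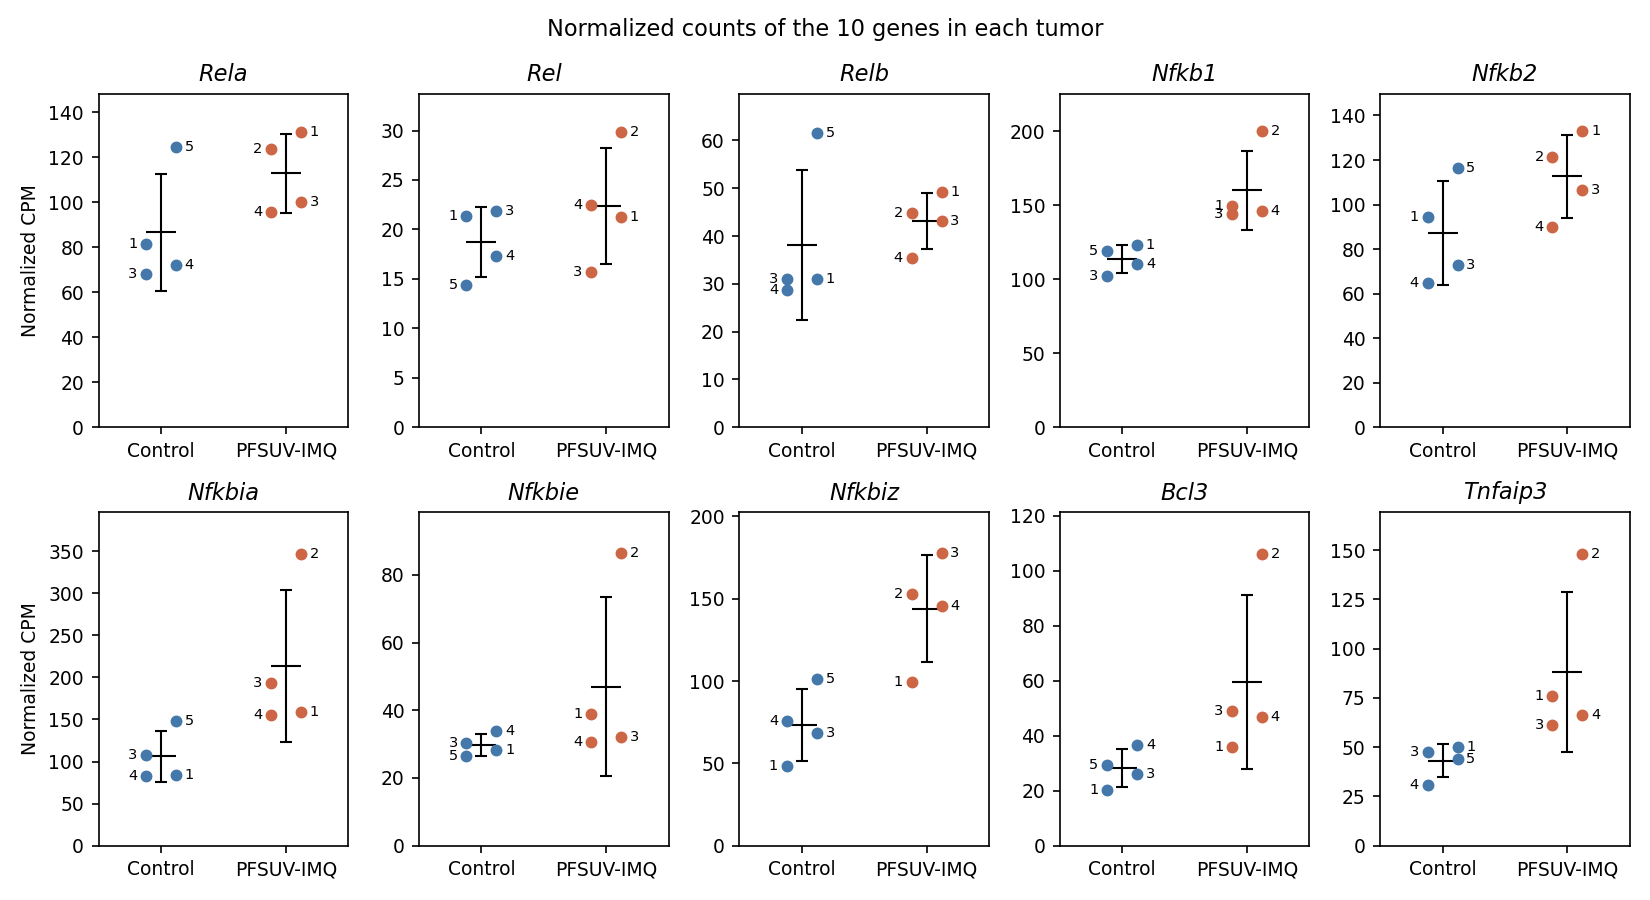
Normalized CPM (vertical axes, each from 0) of the 10 genes in every tumor, with control tumors in blue and PFSUV-IMQ tumors in orange, numbered by replicate; the horizontal line is the mean of 4 tumors and the bar 1 SD to either side. PFSUV-IMQ replicate 2 is the highest tumor of its group for 6 genes, and control replicate 5 the highest of its group for 5.

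Among the inhibitors, Nfkbia (chr12:55489410-55492647, GRCm38) encodes IkappaB alpha, the cytoplasmic inhibitor that binds Rela dimers and is itself rebuilt by NF-kappaB. In control replicates 1, 3, 4 and 5 it was at 84.4, 108, 82.8 and 149 normalized CPM, and in PFSUV-IMQ replicates 1, 2, 3 and 4 at 158, 347, 194 and 156. The groups did not overlap, though control replicate 5 came close to the lowest PFSUV-IMQ tumor and PFSUV-IMQ replicate 2 stood far above the rest. The means were 106 ± 30.7 and 214 ± 90.5 (SD, n = 4), with a log2 fold change of 1.01 (95% interval 0.33 to 1.70) and an edgeR adjusted p of 0.155. Without PFSUV-IMQ replicate 2 the log2 fold change was 0.66.

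Tnfaip3 (chr10:19000910-19015657) encodes A20, a ubiquitin-editing enzyme that shuts off signaling upstream of IKK. It was at 50.3, 47.5, 31.0 and 44.0 CPM in the control tumors and at 76.1, 148, 61.2 and 66.4 in the PFSUV-IMQ tumors. The groups did not overlap, and again PFSUV-IMQ replicate 2 was the highest, at about double the other 3 tumors of its group. The means were 43.2 ± 8.55 and 88.0 ± 40.6 (SD, n = 4), and the log2 fold change of 1.02 (0.36 to 1.69) had an edgeR adjusted p of 0.137. It was 0.63 without that tumor.

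Nfkbiz and Bcl3 encode nuclear IkappaB proteins, which do not hold NF-kappaB in the cytoplasm but bind p50 or p52 dimers on DNA and alter which genes they drive. Nfkbiz (chr16:55811375-55838899) was at 48.5, 68.2, 75.9 and 101 CPM in the control and 99.6, 153, 178 and 146 CPM in the PFSUV-IMQ tumors. The ranges touched, since control replicate 5 was just above PFSUV-IMQ replicate 1, and replicate 2 was not the highest here. Nfkbiz had the smallest edgeR adjusted p of the 10, 0.0954, at a log2 fold change of 0.97 (0.40 to 1.54), which stayed at 0.93 without PFSUV-IMQ replicate 2. Without control replicate 5 it was 1.16 with an edgeR adjusted p of 0.0502, the smallest that any member reached in the 8 fits that each left out 1 tumor.

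Bcl3 (chr7:19808462-19822770) was at 20.3, 26.0, 36.7 and 29.5 CPM in the control and 35.8, 106, 48.9 and 46.9 CPM in the PFSUV-IMQ tumors. The groups overlapped by 1 tumor on each side, with PFSUV-IMQ replicate 1 just below control replicate 4. Its log2 fold change was 1.08 (0.32 to 1.84, edgeR adjusted p = 0.172), and 0.62 without PFSUV-IMQ replicate 2. Of its exon bases, 6.51% are shared with the neighbouring Gm16175. Reads there could have been left out of the count of Bcl3, or could belong to that gene.

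Nfkbie (chr17:45555703-45563169) encodes IkappaB epsilon, a cytoplasmic inhibitor of Rela and Rel dimers. It was at 28.4, 30.2, 33.9 and 26.5 CPM in the control and 39.0, 86.3, 32.0 and 30.6 CPM in the PFSUV-IMQ tumors. All but 1 tumor lay between 26.5 and 39.0 CPM, and PFSUV-IMQ replicate 2 lay at more than double any other. The log2 fold change was 0.66 (-0.07 to 1.38, edgeR adjusted p = 0.452) over all tumors and 0.17 without that tumor.

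Among the subunits, Nfkb1 (chr3:135584655-135691547), the gene of the precursor p105 and of p50, was at 123, 102, 110.4 and 119 CPM in the control and 149.6, 200.015, 144 and 146 CPM in the PFSUV-IMQ tumors. The control tumors were close together and all 4 PFSUV-IMQ tumors lay above them, replicate 2 the farthest. Per exon length, given further below, the groups overlapped and replicate 2 was not the highest. The means were 114 ± 9.29 and 160.0 ± 26.8 (SD, n = 4), a log2 fold change of 0.49 (0.13 to 0.86) with an edgeR adjusted p of 0.197, and 0.35 without replicate 2.

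Rela (chr19:5637483-5648130) encodes p65, the subunit that carries most of the transactivating activity of the canonical dimer. It was at 81.3, 68.2, 72.3 and 125 CPM in the control and 131, 124, 100.2 and 95.8 CPM in the PFSUV-IMQ tumors. Control replicate 5 lay among the PFSUV-IMQ tumors, and the other 3 control tumors were below all of them. The log2 fold change was 0.38 (-0.11 to 0.88, edgeR adjusted p = 0.549), and 0.61 without control replicate 5.

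Nfkb2 (chr19:46304320-46312385), the gene of p100 and p52 of the non-canonical pathway, was again highest in control replicate 5 and in PFSUV-IMQ replicate 1 of their groups. It was at 94.6, 72.8, 64.9 and 117 CPM in the control and 133, 122, 107 and 90.0 CPM in the PFSUV-IMQ tumors, with a log2 fold change of 0.37 (-0.12 to 0.86, edgeR adjusted p = 0.555). Of its exon bases, 18.1% are shared with AC114539.1 and Psd. Relb (chr7:19606217-19629438), the partner of p52, was at 31.1, 31.1, 28.7 and 61.5 CPM in the control and 49.2, 44.9, 43.2 and 35.3 CPM in the PFSUV-IMQ tumors. Here control replicate 5 was the highest of all 8 tumors, and the log2 fold change of 0.18 (-0.40 to 0.76, edgeR adjusted p = 0.853) was 0.51 without it.

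Rel (chr11:23736847-23770970), which encodes c-Rel, a subunit used mostly by lymphoid and myeloid cells, was at 21.4, 21.8, 17.4 and 14.4 CPM in the control and 21.2, 29.9, 15.7 and 22.5 CPM in the PFSUV-IMQ tumors. The groups overlapped, with PFSUV-IMQ replicate 2 the highest and control replicate 5 the lowest of all tumors. The log2 fold change was 0.25 (-0.26 to 0.76, edgeR adjusted p = 0.746), and 0.06 without PFSUV-IMQ replicate 2.

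**Figure D2:**
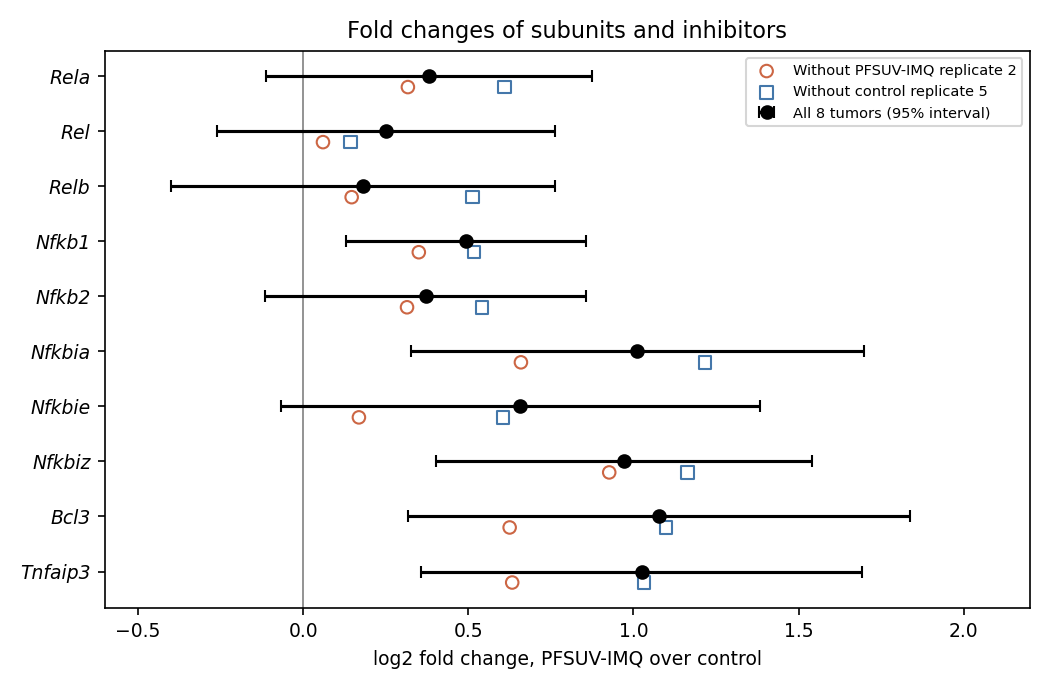
Log2 fold change of each gene, PFSUV-IMQ over control (horizontal axis), from edgeR on all 8 tumors (black, with the 95% interval), without PFSUV-IMQ replicate 2 (open orange circles) and without control replicate 5 (open blue squares). Without PFSUV-IMQ replicate 2, Nfkbia, Tnfaip3, Bcl3 and Nfkbie moved from 1.01, 1.02, 1.08 and 0.66 to 0.66, 0.63, 0.62 and 0.17, whereas Nfkbiz stayed at 0.93.

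The highest tumor of a group was most often PFSUV-IMQ replicate 2 or control replicate 5. PFSUV-IMQ replicate 2 was the highest of its group for 6 of the 10 members and for 34.8% of all tested genes. Control replicate 5 was the highest of its group for 5 members and for 33.4% of all tested genes. These 2 tumors also stood at the ends of several marker lists for other cells. The summed level of 6 neutrophil markers was 143 CPM in PFSUV-IMQ replicate 2, against 30.7 to 46.2 CPM in the other PFSUV-IMQ tumors, and 59.5 CPM in control replicate 5, against 15.7 to 35.2 CPM in the other controls. The defining marker Ly6g had too few counts to be tested and was highest in the same tumor, at 1.258 CPM, against 0.489 CPM at most in the controls. The sum of 6 hepatocyte markers was 32466 CPM in PFSUV-IMQ replicate 2 and 6005 to 8553 CPM in the rest of its group, and it was 4247 CPM in control replicate 5, the lowest of all, and 9429 to 32107 CPM in the other controls. B-cell markers summed to 20.8 CPM in PFSUV-IMQ replicate 2 and to at most 8.08 CPM elsewhere, and leukocyte markers to 807 against 383 to 643 CPM. Fibroblast markers summed to 6236 CPM in PFSUV-IMQ replicate 1 and to 1694 to 3017 CPM elsewhere. Of the 56 marker genes tested in 10 lists, including macrophage, dendritic, T-cell, endothelial and fibroblast lists, 0 were called by edgeR, 7 had an unadjusted p under 0.05, and DESeq2 called 1, the dendritic cell gene Flt3. Of the 7, 2 were higher, Cd14 and Retnlg, and 5 were lower. Over all tested genes, edgeR called 2.46% higher and 0.219% lower. At an unadjusted p under 0.05, 8.34% of all tested genes were higher and 4.65% lower. The number of all genes that DESeq2 called lower, as it did Flt3, is given below with the dependence on the processing. The 5 lower markers were Coro1a, Erg and 3 of the 6 dendritic markers, Flt3, Xcr1 and Siglech, with log2 fold changes of -1.14, -0.84 and -1.11. The other dendritic markers, Itgax, Zbtb46 and Clec9a, were at -0.27, -0.27 and 0.06. The part of these cells in the members' values was not tested.

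The labelled cell type, HCC, was checked by its own short list. Afp was at 2.096 to 6.08 CPM, Epcam at 5.43 to 11.4 CPM, Gpc3 and H19 at 4.10 CPM or less, and Igf2 at 0 to 0.0551 CPM. Of Igf2's exon bases, 64.5% are shared with Gm49394 and Igf2os, so some of its reads could have been left out of its count. The summed level of the 5 was 16.2 to 19.4 CPM in the control and 14.3 to 21.9 CPM in the PFSUV-IMQ tumors. Alb, the main hepatocyte product, was at 2938 to 22736 CPM over the 8 tumors.

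The balance between members was compared inside each tumor by the log2 ratio of their counts, which does not depend on library scaling. Differences between groups were tested by an exact two-sided permutation test, with adjustment over the 5 pairs compared. For 4 against 4 tumors its smallest possible p is 0.0286. Nfkbia relative to Rela, the inhibitor against its main target, was 0.29 ± 0.26 in control and 0.85 ± 0.51 in PFSUV-IMQ tumors (SD, n = 4). The difference was 0.56 (95% interval -0.14 to 1.259, exact p = 0.0571, adjusted p = 0.286). By tumor, the log2 ratio was 0.05, 0.67, 0.20 and 0.25 in control replicates 1, 3, 4 and 5 and 0.27, 1.49, 0.95 and 0.70 in PFSUV-IMQ replicates 1 to 4. Control replicate 3 lay above PFSUV-IMQ replicate 1, and the groups did not overlap otherwise.

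The other 4 ratios differed less relative to their spread. Nfkb2 against Nfkb1 differed by -0.09 (-0.58 to 0.40, exact p = 0.629, adjusted p = 0.657). Relb against Rela differed by -0.16 (-0.42 to 0.09, exact p = 0.171, adjusted p = 0.286). Rel against Rela differed by -0.18 (-1.06 to 0.71, exact p = 0.657, adjusted p = 0.657), and Nfkbie against Nfkbia by -0.45 (-1.16 to 0.27, exact p = 0.171, adjusted p = 0.286).

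Per exon length, Nfkbia was the most abundant of the 10 transcripts and Rel the least. In TPM (reads per kilobase of exon, scaled to the same sum over all genes in each tumor, without TMM factors), the control means ± SD (n = 4) were 193 ± 66.1 for Nfkbia and 83.0 ± 30.2 for Rela. Nfkb2 was at 56.1 ± 18.6 TPM and Nfkbiz at 42.7 ± 14.4 TPM. Bcl3, Relb, Nfkbie and Nfkb1 lay close together at 32.9, 29.0, 28.3 and 27.5 TPM. Tnfaip3 was at 17.5 ± 4.02 TPM and Rel at 7.27 ± 1.28 TPM. Neighbours in this order overlapped between control tumors except Nfkbia and Rela, Nfkb1 and Tnfaip3, and Tnfaip3 and Rel. The order rests on the length used. Nfkb1 has 12061 bases in the union of its annotated exons but 4149 in its longest transcript, and with the latter it was at 62.1 TPM, 3rd instead of 8th.

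**Figure D3:**
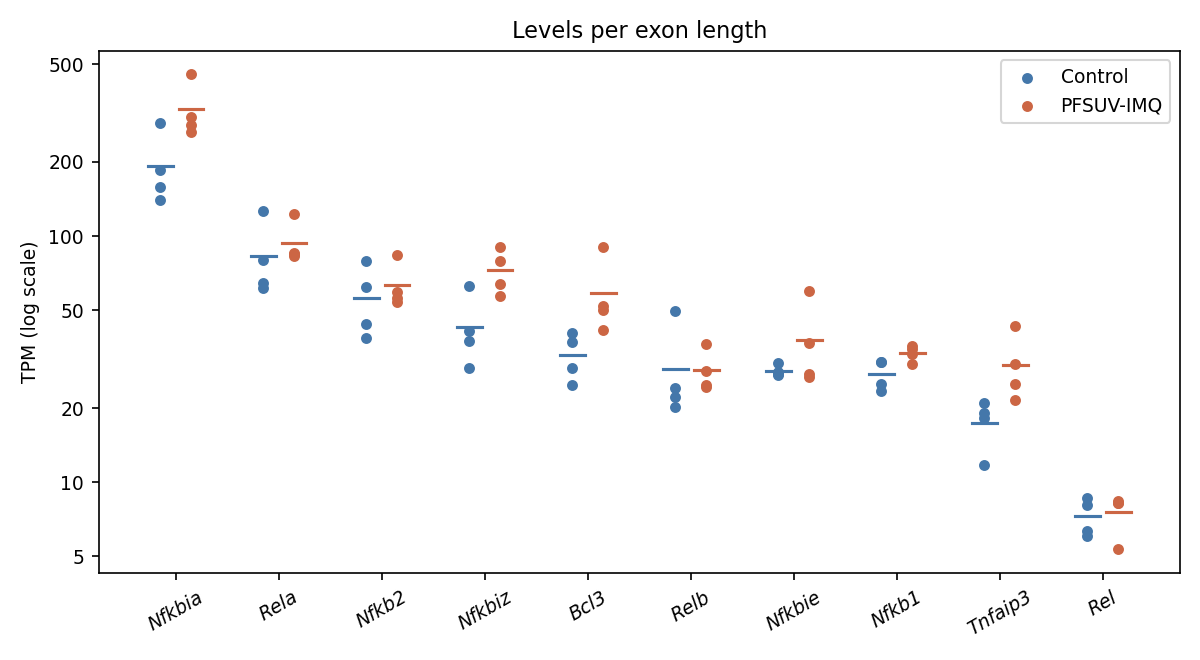
Level per exon length (TPM, log scale) of the 10 genes in each control (blue) and PFSUV-IMQ (orange) tumor, ordered by the control mean; lines are group means. Nfkbia lies above all others in every tumor, and in the PFSUV-IMQ group Nfkbiz, at a mean of 72.7 TPM, stands above Nfkb2, at 63.0 TPM.

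On the TPM scale the groups of Nfkbia overlapped, at 158, 186, 140.5 and 288 TPM in the control and 284, 453, 306 and 265 TPM in the PFSUV-IMQ tumors, and so did those of Nfkb1, at 30.7, 23.4, 25.0 and 30.9 and 35.8, 34.9, 30.3 and 33.2 TPM. Tnfaip3 still separated, at 20.98, 18.2, 11.7 and 19.04 against 30.3, 43.1, 21.5 and 25.2 TPM. For Nfkbia and Nfkb1 the highest control tumor on this scale was replicate 5.

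The makeup of the subunit pool was read from the same levels. Of the summed TPM of the 5 subunits, Rela took 38.6 to 43.3% in the control and 40.3 to 42.9% in the PFSUV-IMQ tumors. Nfkb2 took 25.1 to 30.3% and 26.2 to 29.1%, Nfkb1 10.6 to 16.2% and 12.5 to 16.8%, Relb 11.7 to 16.9% and 11.7 to 13.7%, and Rel 2.06 to 5.09% and 2.59 to 4.05%. The ranges of the groups overlapped for each subunit. The lowest shares of Nfkb1 and Rel and the highest shares of Rela and Relb were all those of control replicate 5.

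Genes around the members in the pathway were read from the same edgeR fit, in 4 lists. Over all tested genes, edgeR called 2.46% higher and 0.219% lower, and DESeq2 called 3.44% of the genes it tested higher. Upstream of the inhibitors, 1 of the 22 genes of the IKK complex and its activators was called higher and 0 lower by edgeR, with a median log2 fold change of 0.12. DESeq2 called 2 higher, Rnf31 and Ikbke, and 1 lower, Card9. The number of all genes that DESeq2 called lower is given below, with the dependence on the processing. The gene called by edgeR was Rnf31, the catalytic subunit of the linear ubiquitin ligase that activates IKK. Rnf31 was at 28.6, 29.2, 27.3 and 39.6 CPM in the control and 90.3, 126, 78.8 and 83.9 CPM in the PFSUV-IMQ tumors. The groups stood far apart, and it rose by a log2 fold change of 1.60 ± 0.20 (SE, edgeR adjusted p = 0.00327), called also in each of the 8 fits that left out 1 tumor. It shares 2.15% of its exon bases with the neighbouring Irf9. Map3k14, the kinase NIK of the non-canonical pathway, was at 17.7 ± 4.87 CPM in control and 20.5 ± 2.41 CPM in PFSUV-IMQ tumors (edgeR adjusted p = 0.778).

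Among the 16 other inhibitors, 0 were called by edgeR, 1 was higher at an unadjusted p under 0.05, and DESeq2 called 0. Over all tested genes, 8.34% were higher at that unadjusted p, and edgeR called 2.46% higher. The median log2 fold change was 0.12. The paralog Nfkbib (IkappaB beta) had a log2 fold change of 0.38 ± 0.20 and Nfkbid, another nuclear IkappaB protein, of 0.78 ± 0.35 (SE). Tnip1, a partner of A20, was at 0.08 ± 0.25. Its relative Tnip3 was at 0.64 ± 0.78, which rested on PFSUV-IMQ replicate 2 and was -1.01 without it.

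Of the 28 target genes listed, 27 were tested (Csf3 was not), 3 were called higher and 0 lower, and 14 had an unadjusted p under 0.05, all higher. DESeq2 called 10 higher and 0 lower. Every PFSUV-IMQ tumor lay above every control tumor for 10 of the 27. Over all tested genes, 2.46% were called higher, 8.34% were higher at an unadjusted p under 0.05, and 6.00% had groups that did not overlap in this direction. The median log2 fold change was 0.94. Nos2, the inducible nitric oxide synthase, was at 7.005, 11.1, 5.41 and 8.09 CPM in the control and 64.4, 388, 29.3 and 35.7 CPM in the PFSUV-IMQ tumors. No tumor overlapped, and it rose by a log2 fold change of 4.03 ± 0.85 (SE, edgeR adjusted p = 0.0389), which was 2.43 and still called without PFSUV-IMQ replicate 2 but was not called in the 4 fits that left out a control tumor. Il6, a cytokine gene, was at 0.323, 0.808, 0.430 and 0.706 CPM in the control and 1.54, 7.13, 2.06 and 3.36 CPM in the PFSUV-IMQ tumors, low counts in each, and rose by 2.61 ± 0.54 (edgeR adjusted p = 0.0374). Without PFSUV-IMQ replicate 2 its log2 fold change was 2.003, with an edgeR adjusted p of 0.0567. Ier3, an early response gene, was at 49.9, 56.1, 44.2 and 76.1 CPM and 96.7, 102, 136 and 109 CPM, without overlap, and rose by 0.97 ± 0.20 (edgeR adjusted p = 0.0375). The calls of Il6 and Ier3 were each kept in 1 of the 8 fits that left out a tumor.

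Other named targets were highest in a single tumor. Tnf, the cytokine that itself activates NF-kappaB, was at 2.12, 3.41, 3.91 and 2.71 CPM in the control and 2.43, 15.9, 3.46 and 5.02 CPM in the PFSUV-IMQ tumors. Its log2 fold change of 1.13 ± 0.55 (edgeR adjusted p = 0.449) was 0.24 without PFSUV-IMQ replicate 2. Birc3, which encodes the ubiquitin ligase cIAP2, went from 1.00 to 0.23, and Traf1, an adaptor of TNF receptors, from 0.46 to 0.22 when that tumor was left out. None of these 3 was called. PFSUV-IMQ replicate 2 was the highest of its group for 21 of the 27 target genes.

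Of the 12 ligands and receptors of the non-canonical branch, 11 were tested (Cd40lg was not). By edgeR, 1 was called higher and 0 lower, beside 2.46% and 0.219% of all tested genes. The median log2 fold change of the list was 0.15. The called gene was Cd40, a receptor of antigen-presenting cells that signals through NIK. It was at 4.19, 7.20, 5.41 and 6.57 CPM in the control and 25.9, 82.9, 25.0 and 24.4 CPM in the PFSUV-IMQ tumors. It rose by a log2 fold change of 2.75 ± 0.44 (SE, edgeR adjusted p = 0.0110), and by 2.08 without PFSUV-IMQ replicate 2, with an adjusted p of 0.000938.

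**Figure D4:**
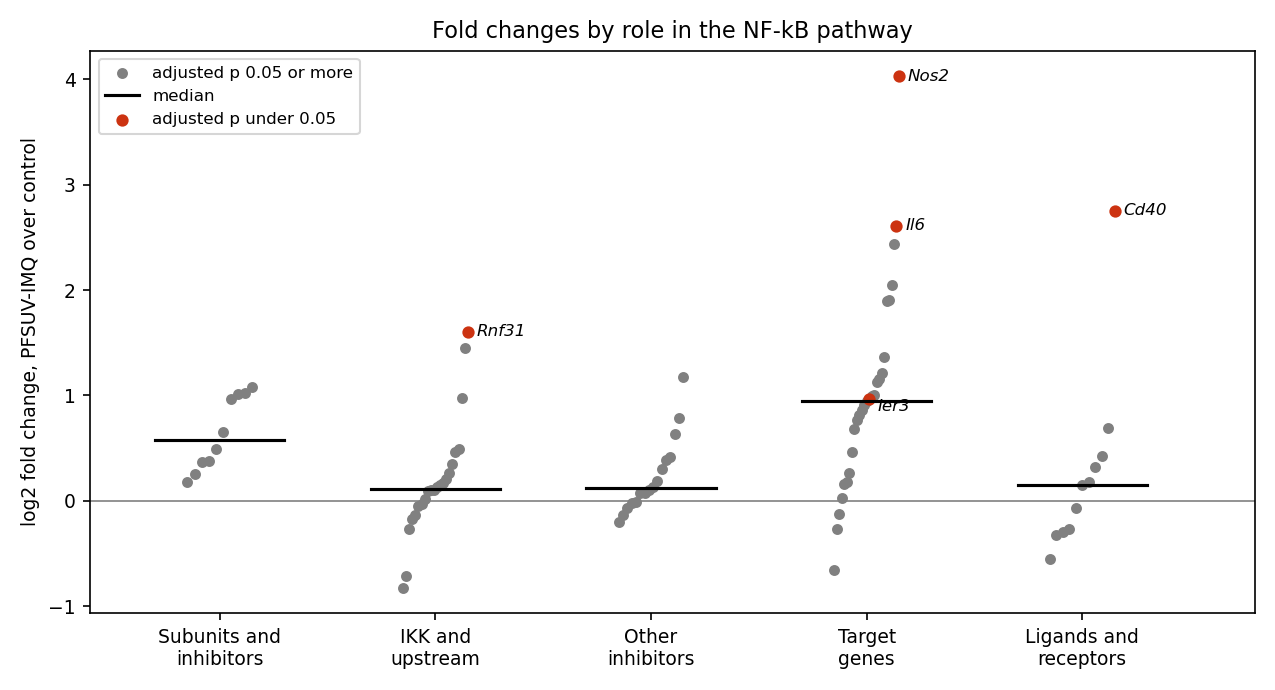
Log2 fold change, PFSUV-IMQ over control, of every tested gene in 5 groups of the NF-kappaB pathway (one point a gene, ordered by size within a group); black lines are medians and red points passed edgeR's test at an adjusted p under 0.05. The medians were 0.58 for the subunits and inhibitors, 0.12 for the IKK and upstream genes, 0.12 for the other inhibitors, 0.94 for the target genes and 0.15 for the ligands and receptors.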

How the data were processed

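RNA of 8 tumors was sequenced from mRNA libraries. The authors deposited unnormalized counts of reads per gene, and a table of signal values, which the authors made by dividing each tumor's counts by 1 size factor (largest relative departure 5.4e-10). The study's methods name TopHat and HTSeq, whereas the submitters' processing notes list CASAVA, FastQC, MultiQC, Trimmomatic 0.38, HISAT2 2.1.0 and featureCounts 2.0.0, so it is uncertain which pair made the counts. The genome build, and whether counting used strand, are not given in the sources used here. All 55536 gene identifiers are in GENCODE M21 (GRCm38), the source of the positions and exon lengths. Promoter windows and motif shares are from RefSeq, GRCm38.p6.

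Members were taken by symbol from the normalized table and joined to the counts by Ensembl identifier. Members and gene lists were chosen with earlier results of these data known. Counts were tested with edgeR 4.0.16 (TMM, its default expression filter, quasi-likelihood test, Benjamini-Hochberg over 15998 genes, no limit on the fold change) in R 4.3.3, 4 against 4 tumors with no covariate. The test was first tried on simulated counts, whose planted changes were all larger than the members' fitted changes. It was therefore not tried on changes of the members' size. Intervals are at 95%. Ratios used a pseudocount of 0.5 counts. Their exact tests enumerated all splits of the tumors into 2 groups, and their intervals used the t distribution of scipy 1.17.1. Totals of 16883911 to 27687756 counts per tumor put 3 counts at 0.105 to 0.210 CPM. TPM used the union of annotated exons. No label gives a sequencing batch or date. The genes named are the 10 members, up to 4 called genes per list and direction with the largest change, and Nfkbib, Nfkbid, Tnip1, Tnip3, Birc3, Traf1, Tnf, Il6, Map3k14 and Cd40. Of the 147 genes written in the lists, 146 were matched by symbol (not Tf).

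Alternatives were upper-quartile normalization, the size factors of DESeq2, no expression filter, the Wald test of DESeq2 1.42.0, a log2 fold change beyond 1, a term for the replicate number, each tumor left out, a pseudocount of 1 for ratios, and the longest transcript as length.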

Additional observations from a re-analysis of the deposited data

Results flagged for a closer look

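The members and the named pathway genes, 23 genes in 2 groups of 4 tumors each, were screened for a tumor far from the other 3 by Dixon's test at the 95% level. Of the 46 groups, 8 had such a tumor, 3 of them for members. By chance the test marks about 1 in 20 groups. In these tumors it marked 9.26% of the 31996 groups of all tested genes, and 17.4% of the groups screened here.

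Among the members, Relb stood at 61.5 CPM in control replicate 5, against 28.7 to 31.1 CPM in the other control tumors. Nfkb1 stood at 200.015 CPM in PFSUV-IMQ replicate 2, against 144 to 149.6 CPM in the other PFSUV-IMQ tumors, and Nfkbie at 86.3 CPM, against 30.6 to 39.0 CPM. In TPM, Nfkb1 did not stand apart, at 34.9 in replicate 2 and 35.8, 30.3 and 33.2 in replicates 1, 3 and 4. Nfkbie was at 59.6 TPM in replicate 2 and 36.9, 26.7 and 27.5 TPM in those tumors.

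Among the other pathway genes, Rnf31 stood apart in control replicate 5, at 39.6 CPM against 27.3 to 29.2 CPM. The remaining 4 stood apart in PFSUV-IMQ replicate 2. They were Nos2 at 388 CPM against 29.3 to 64.4 CPM, Cd40 at 82.9 CPM against 24.4 to 25.9 CPM, Tnip3 at 13.8 CPM against 0.938 to 2.095 CPM, and Birc3 at 123 CPM against 30.3 to 37.3 CPM.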

How the results depend on the processing

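Of 140 alternative values of the 10 members' log2 fold changes, 136 kept direction and side of the threshold, 3 passed it and 1 changed sign. For each member, 1 of the kept values came from the limit of 1 on the log2 fold change. That limit used the main fit, where no member was called, so it could not differ. Of 182 for the other named genes, 156 kept both, 20 lost the call and 6 changed sign. The cause of these changes was not tested.

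The members called higher numbered 0 by edgeR, 1 by DESeq2's Wald test and 2 with the replicate block, and 0 in every fit that left out a tumor. The number of all genes called higher with the block is not given here, so its higher calls have no share beside them. Over all genes, 394 were called higher and 35 lower. By DESeq2 these became 729 and 176, of the 21203 genes it tested. The lower calls became 64 with no filter on low counts and 302 with the replicate block. When 1 tumor was left out, 198 to 398 were higher and 8 to 41 lower (16245 to 16457 genes tested). The 5 pathway genes called higher became 9 with no filter, 13 by DESeq2, 10 with the block and 2 to 5 when 1 tumor was left out, and DESeq2 called 1 lower.

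Both groups hold tumors numbered 1, 3 and 4, but no source says that these numbers mark pairs. The deviations of same-numbered tumors from their group means correlated at 0.29, -0.27 and -0.32. Without values for differently numbered tumors beside them, these correlations cannot decide whether the numbers mark pairs. For want of a source, the numbers were not taken as pairs. With the replicate number as a block, on these 3 numbers, Nfkbia (adjusted p = 0.0276) and Nfkbiz (0.0180) passed, Rel changed sign to -0.037, Tnip3 to -1.20 and the ratio of Nfkb2 to Nfkb1 to 0.11.

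Tnip1 turned to -0.000337 with upper-quartile normalization and ran from -0.11 to 0.30 without 1 tumor, and Tnip3 from -1.01 to 0.98. Without 1 tumor the ratio of Rel to Rela ran from -0.48 to 0.00508 and that of Nfkb2 to Nfkb1 from -0.21 to 0.0372. With 1 tumor left out, the exact test of a ratio cannot go below p = 0.0571, and with 3 pairs not below 0.25. With the longest transcript as length, control levels were 22.3 TPM for Nfkbie, 62.1 for Nfkb1 and 5.66 for Rel. Nos2 lost its call in the 4 fits without a control tumor, and Ier3 also with upper-quartile normalization and with the limit of 1 on the log2 fold change.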

Other observations

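The following pathway genes were chosen after their values were seen, and none was called by edgeR with all 8 tumors. DESeq2 called 5 of the 7, all but Tbk1 and Birc2. The kinases Ikbke and Tbk1, relatives of the IKK kinases that act chiefly on interferon regulatory factors, were higher in every PFSUV-IMQ tumor than in every control tumor. Ikbke was at 24.3, 23.6, 38.7 and 42.7 CPM in the control and 56.3, 167, 71.0 and 58.7 CPM in the PFSUV-IMQ tumors, a log2 fold change of 1.45 ± 0.38 (SE; edgeR adjusted p = 0.0985). Tbk1 was at 43.7, 41.3, 44.5 and 35.8 CPM and 50.5, 138, 63.4 and 73.8 CPM, with 0.98 ± 0.29 (edgeR adjusted p = 0.145). Without PFSUV-IMQ replicate 2 the log2 fold changes were 0.93 and 0.58.

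Card9, an adaptor of myeloid pattern receptors, was the only gene of the 4 lists with every PFSUV-IMQ tumor below every control tumor. It was at 6.59, 5.13, 8.55 and 8.47 CPM in the control and 4.25, 4.19, 4.52 and 3.25 CPM in the PFSUV-IMQ tumors, a log2 fold change of -0.82 ± 0.24 (edgeR adjusted p = 0.143). Birc2, which encodes the ubiquitin ligase cIAP1, was at 33.1, 42.0, 37.2 and 31.1 CPM and 43.8, 163, 58.2 and 59.2 CPM, with 1.18 ± 0.38 (edgeR adjusted p = 0.192) and 0.57 without PFSUV-IMQ replicate 2.

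Of the 10 target genes whose groups did not overlap (6.00% of all tested genes did so in this direction), 3 more are given here, the chemokine genes Ccl2 and Ccl4 and the iron-binding protein gene Lcn2. Ccl2 was at 36.2, 42.7, 30.7 and 30.4 CPM in the control and 61.4, 276, 82.5 and 104 CPM in the PFSUV-IMQ tumors (edgeR adjusted p = 0.0549). Ccl4 was at 3.50, 6.22, 3.61 and 6.52 CPM and 9.99, 41.4, 10.5 and 11.9 CPM (edgeR adjusted p = 0.101), and Lcn2 at 158, 29.9, 106 and 38.7 CPM and 197, 942, 352 and 306 CPM (edgeR adjusted p = 0.0983). Without PFSUV-IMQ replicate 2 the log2 fold changes went from 1.90, 1.89 and 2.44 to 1.22, 1.11 and 1.76, and edgeR then called Ccl2 (adjusted p = 0.0214).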
